A study of Mus musculus with 20 samples.

Results

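Granulocytic and monocytic myeloid-derived suppressor cells (gMDSC and mMDSC) sorted from tumours of vehicle-treated mice were compared across all genes. The libraries were chosen by their labels alone: treatment vehicle, with cell type gMDSC (5 libraries) or mMDSC (5 libraries). They are 10 of the 20 libraries of a study of GNE-781 (CBPi), a drug that blocks the bromodomain of the acetyltransferases CBP and EP300. The hosts of both groups were female SCID.beige mice, 6 to 8 weeks old, a strain that lacks functional T and B lymphocytes and has impaired natural killer cells. Tumour cells had been implanted under the skin of 1 flank. They were either MDA.MB.231-X1.1, derived from human breast cancer, or CT26, derived from a mouse colon carcinoma. The labels do not tie a tumour line to a library. Dosing began when tumours reached a mean of 150 to 200 mm3, and both groups here received the vehicle, MCT, by mouth for 7 days. The drug, at 25 mg/kg, was given only to the 10 libraries that enter the last comparison below. Tumours were digested with collagenase and DNase and the cells were sorted with antibodies: both gates were CD45+CD11b+Ly6C+F4/80-, and Ly6G was positive for gMDSC and negative for mMDSC. Nothing in the labels says whether a library came from 1 mouse or a pool, or whether the 2 cell types of a number came from the same animal, so p-values measure the spread between these libraries.

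Granulocytes and monocytes arise from a shared bone marrow progenitor. C/EBP factors, G-CSF and CXCR2 ligands drive and recruit neutrophils, which make their granule proteins in the marrow and lose many of those transcripts as they mature. IRF8, KLF4 and the M-CSF receptor belong to the monocyte and macrophage branch, and CCR2 brings monocytes into tissue. In tumours, cells of both branches can restrain T cells through arginine depletion, nitric oxide, prostaglandin E2, adenosine and PD-L1, and they are then called MDSC.

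Poly-A-selected RNA was sequenced, and the counts per gene summed to 12.37 to 23.27 M (1 M is 1e6) per library. Levels are given as CPM, counts per 1e6 counts of the library scaled by edgeR's TMM factors, as mean ± SD over 5 libraries, and differences as log2(gMDSC/mMDSC) ± SE. Where 5 values are given for a cell type, they follow the order of libraries 1 to 5. Genes were called higher or lower at an adjusted p under 0.05 in the quasi-likelihood test of edgeR, adjusted by Benjamini-Hochberg over all genes tested. The first principal component held 45.2% of the variance and separated the cell types. The library gMDSC 3 stood apart from the other gMDSC libraries: its median correlation with them was 0.837, against 0.911 to 0.925 for the other four, and it had the fewest genes with counts (12769). The library mMDSC 4 was the least like its group (median correlation 0.928, the other mMDSC libraries 0.958 to 0.962). Among the gMDSC libraries, gMDSC 5 lay nearest to mMDSC. Its highest correlation with an mMDSC library was 0.897, against 0.781 to 0.88 for the other gMDSC libraries. In these bulk samples, fewer cells of a type and less RNA per cell cannot be told apart.

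The test covered 11576 genes. In gMDSC 1579 (13.6%) passed as higher and 935 (8.08%) as lower, and the median difference over all genes was -0.06. For 2323 genes (20.1%) the groups did not overlap: all gMDSC libraries were above all mMDSC libraries for 11.5% of genes and below them for 8.53%. The balance of the calls rested on the scaling. With library totals alone in place of TMM factors, 1009 genes were higher and 2714 lower, so that 27.1% of calls were higher instead of 62.8%, and the median over all genes moved to -0.43. Without gMDSC 3, 1749 genes were higher and 1521 lower. Differences below are therefore relative to the centre of the genes as TMM sets it. Counts of list members below are to be read beside the shares over all genes, 13.6% higher and 8.08% lower.

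**Figure D1:**
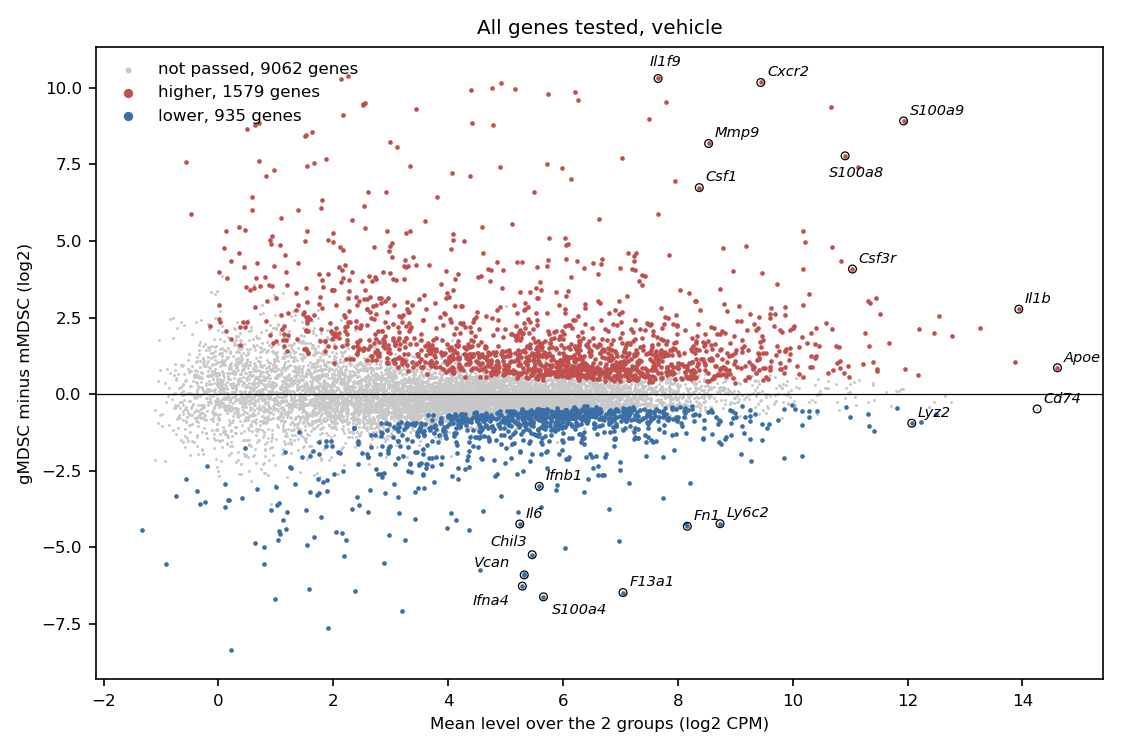
Difference between gMDSC and mMDSC (log2, vertical axis) against the mean level of the 2 groups (log2 CPM, horizontal axis) for the 11576 genes tested in vehicle-treated animals. Each point is a gene, red where higher (1579) and blue where lower (935) in gMDSC, and circles mark named genes such as Cxcr2 at 10.17 and F13a1 at -6.47.

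The upstream bases of a few genes that lie at the extremes of the comparison are shown first. In each, 1 motif picked for that gene is marked, and whether it regulates the gene was not tested. S100a8 and S100a9, neighbours on chromosome 3, encode the calprotectin subunits of neutrophils and were among the genes highest in gMDSC. Ifna4 and Ifna5, neighbours on chromosome 4, encode type I interferons and were among the genes lowest in gMDSC. Each line gives the 250 bases before the RefSeq start, read along the gene's strand (GRCm38.p6): chr3:90668821-90669070 plus strand for S100a8, chr3:90695722-90695971 minus strand for S100a9, chr4:88841566-88841815 plus strand for Ifna4 and chr4:88835275-88835524 plus strand for Ifna5. Capitals mark a match on either strand to a PU.1 motif (GAGGAAGT) in S100a8, a C/EBP motif (TTGCNNAA) in S100a9 and an interferon-stimulated response element (ISRE, the letters GAAA, any 2 bases, then GAAA again) in the interferon genes.
S100a8: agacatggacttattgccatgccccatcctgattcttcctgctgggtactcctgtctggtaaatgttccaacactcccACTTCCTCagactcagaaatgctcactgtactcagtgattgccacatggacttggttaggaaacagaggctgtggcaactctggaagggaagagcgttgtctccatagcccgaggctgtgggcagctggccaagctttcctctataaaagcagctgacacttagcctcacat
S100a9: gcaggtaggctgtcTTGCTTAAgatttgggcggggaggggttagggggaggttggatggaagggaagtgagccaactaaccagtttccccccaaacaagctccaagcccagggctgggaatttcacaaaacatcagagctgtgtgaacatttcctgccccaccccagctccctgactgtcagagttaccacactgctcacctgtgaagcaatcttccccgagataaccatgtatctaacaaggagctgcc
Ifna4: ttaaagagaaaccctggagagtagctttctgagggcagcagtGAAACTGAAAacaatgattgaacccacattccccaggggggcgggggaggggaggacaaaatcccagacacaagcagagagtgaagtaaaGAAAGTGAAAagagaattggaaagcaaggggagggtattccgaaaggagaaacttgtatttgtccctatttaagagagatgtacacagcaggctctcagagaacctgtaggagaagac
Ifna5: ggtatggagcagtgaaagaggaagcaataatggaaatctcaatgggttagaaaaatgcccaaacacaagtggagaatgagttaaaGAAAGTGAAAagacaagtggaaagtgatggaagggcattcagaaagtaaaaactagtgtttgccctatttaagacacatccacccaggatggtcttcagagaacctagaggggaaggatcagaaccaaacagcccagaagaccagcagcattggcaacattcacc
Ifna4 held 2 ISRE matches and Ifna5 held 1. Among the 9098 genes tested that had a promoter in the table, 3.65% held an ISRE match in these 250 bases, against 5.02% of the 1254 genes higher and 7.55% of the 728 genes lower in gMDSC. The PU.1 letters were in 3.24% of genes tested, 5.02% of genes higher and 4.67% of genes lower. The C/EBP letters were in 9.21%, 10.5% and 11.1%. These shares describe letters in the window, not sites of binding.

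The genes of the gates came first as a check of the labels. Ly6g, the surface antigen that separated the gates, was at 0.141, 0, 0.39, 0.16 and 0.0746 CPM in mMDSC against 8.77, 5.43, 5.19, 5.48 and 0.437 CPM in gMDSC. Its counts were too few for the test, yet the 5 gMDSC libraries all lay above the 5 mMDSC libraries, and gMDSC 5 came closest to them. Both gates were Ly6C+, but the Ly6c transcripts were lower in gMDSC. Ly6c1 was at 385, 482, 623, 824 and 385 CPM in mMDSC against 45.9, 18.4, 38.9, 26.3 and 13.1 CPM in gMDSC (-4.25 ± 0.37, edgeR adjusted p = 4.39e-06), and Ly6c2 at 594, 753, 899, 1200 and 596 CPM in mMDSC against 65.5, 28.5, 61.4, 40.6 and 20.4 CPM in gMDSC (-4.23 ± 0.35, edgeR adjusted p = 2.89e-06). Neither overlapped. The pair lies at chr15:75044018-75048920 and chr15:75108161-75112066. Their longest GENCODE transcripts are 97.6% identical over 822 aligned bases, so reads may be shared between them and the values of each are uncertain. Ptprc, which encodes CD45, stood at 1531 ± 106 CPM in mMDSC against 1936 ± 365 CPM in gMDSC and did not pass (0.34 ± 0.15, edgeR adjusted p = 0.131). Itgam, which encodes CD11b, was higher in gMDSC (527 ± 179.9 CPM in mMDSC against 942 ± 287 CPM in gMDSC, 0.84 ± 0.28, edgeR adjusted p = 0.0485), a call that ended on leaving out any of 8 of the 10 libraries (adjusted p up to 0.109). Adgre1 encodes F4/80, for which both gates were negative, and its RNA was nonetheless abundant in both: 811 ± 80.3 CPM in mMDSC against 1020 ± 330.3 CPM in gMDSC (0.33 ± 0.20, edgeR adjusted p = 0.291).

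Neutrophil genes set the gMDSC apart. Of 20 tested members of the neutrophil identity list, 19 were higher and 0 lower, with a median difference of 4.78, and the groups did not overlap for those 19. Some members, such as Stfa2l1 (mean 0.035 CPM in mMDSC) and Asprv1 (0.59 CPM), reached the test through their gMDSC counts. Their direction, and the count and median in part, therefore follow from the count filter. S100a8, S100a9, Hdc and Mxd1 had counts in every library of both groups. The calprotectin subunit S100a8 was at 13.7, 20.2, 18.7, 25.5 and 9.52 CPM in mMDSC against 3549, 1881, 9137, 3037 and 1589 CPM in gMDSC (7.78 ± 0.58, edgeR adjusted p = 1.07e-06). Its partner S100a9 was at 14.4, 25.4, 20.4, 15 and 5.6 CPM in mMDSC against 7204, 3881, 19130, 5983 and 2773 CPM in gMDSC (8.91 ± 0.69, edgeR adjusted p = 1.52e-06). In both genes gMDSC 3 was the highest library by far, yet the lowest gMDSC library was still far above every mMDSC library. Hdc, histidine decarboxylase, which makes histamine, was at 13.4, 24.6, 28.5, 39.6 and 25.2 CPM in mMDSC against 5494, 3756, 5222, 5066 and 2862 CPM in gMDSC (7.42 ± 0.34, edgeR adjusted p = 2.72e-08). Mxd1, a MYC antagonist of terminally differentiating myeloid cells, was at 134, 114, 132, 126 and 138 CPM in mMDSC against 2575, 2125, 2058, 2535 and 1649 CPM in gMDSC (4.09 ± 0.16, edgeR adjusted p = 1.57e-08), the smallest adjusted p of this list. Its spread was narrow within each group and gMDSC 3 was not set apart. Further members were the decoy receptor for IL-1, Il1r2 (112 ± 42.6 CPM in mMDSC against 3162 ± 1154 CPM in gMDSC, 4.82), the G0/G1 switch gene G0s2 (4.9 ± 2.19 CPM in mMDSC against 3228 ± 1924 CPM in gMDSC, 9.36), the metalloreductase gene Steap4 (3.97 ± 2.26 CPM in mMDSC against 490.1 ± 107 CPM in gMDSC, 6.97) and the histone deiminase gene Padi4 (1.2 ± 1.21 CPM in mMDSC against 31.8 ± 16.4 CPM in gMDSC, 4.73). Cd300ld was the member that did not pass (-0.04 ± 0.17, edgeR adjusted p = 0.889). The summed level of the list was 1406 to 1849 CPM in mMDSC and 20770 to 59910 CPM in gMDSC, lowest in gMDSC 5 and highest in gMDSC 3.

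**Figure D2:**
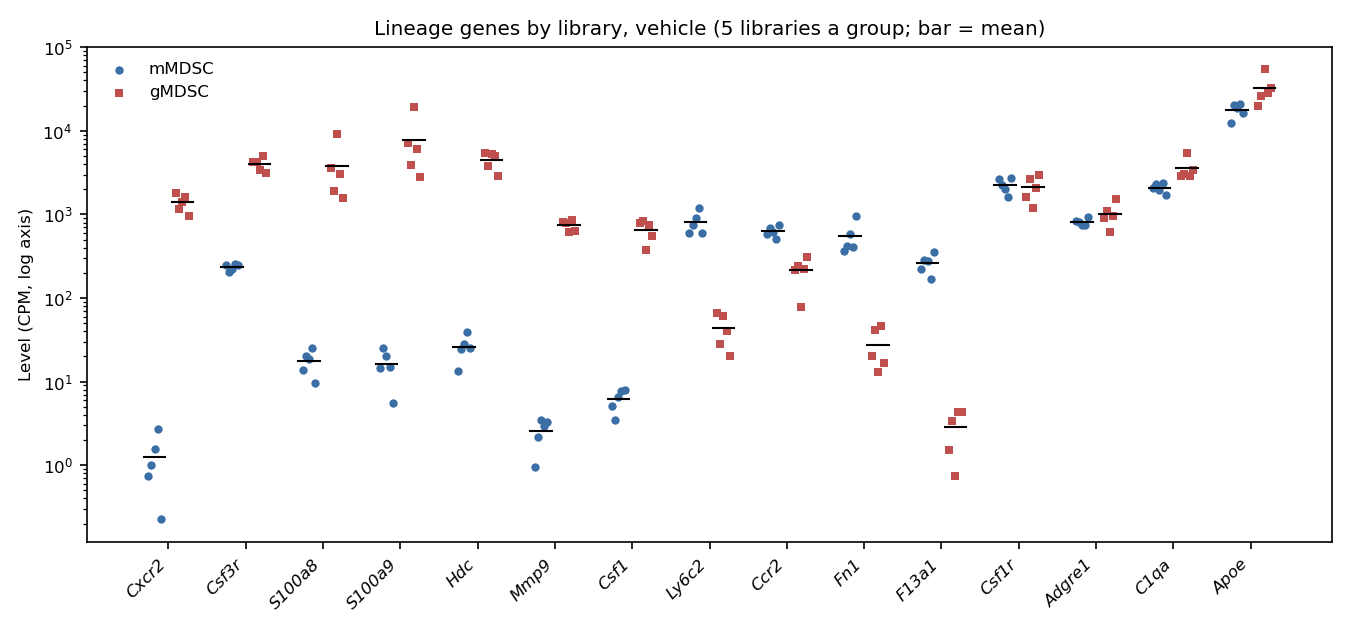
Level of 15 lineage genes in each vehicle library (CPM, log axis), with blue circles for the 5 mMDSC libraries, red squares for the 5 gMDSC libraries in the order 1 to 5 from left to right, and bars for group means. The groups did not overlap for the genes from Cxcr2 to F13a1 or for C1qa, but did for Csf1r, Adgre1 and Apoe.

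Receptors that guide and feed granulocytes were higher in gMDSC: of 21 tested guidance and growth receptors, 14 were higher and 3 lower (median 1.48). Cxcr2, at chr1:74153994-74161246, encodes the receptor for neutrophil-attracting CXC chemokines and was at 0.751, 1, 1.56, 2.71 and 0.224 CPM in mMDSC against 1780, 1174, 1426, 1631 and 953 CPM in gMDSC (10.17 ± 0.55, edgeR adjusted p = 1.02e-07). Its neighbour Cxcr1 had no counts in the 5 mMDSC libraries and was at 12.2, 6.03, 13.8, 9.84 and 5.68 CPM in gMDSC 1 to 5. Against a floor of 3 counts over the mMDSC group, Cxcr1 was at least 346-fold higher in gMDSC. Csf3r, the G-CSF receptor gene, was at 248, 203, 223, 252 and 248 CPM in mMDSC against 4184, 4281, 3370, 4931 and 3136 CPM in gMDSC (4.08 ± 0.17, edgeR adjusted p = 1.6e-08). Thus mMDSC had a clear level of Csf3r but almost none of Cxcr2. The formyl peptide receptor gene Fpr1 (3.30), the C5a receptor gene C5ar1 (2.16), the platelet-activating factor receptor gene Ptafr (1.96), Ccr1 (1.88) and the marrow-retention receptor gene Cxcr4 (1.92) were also higher. The monocyte receptor gene Ccr2 was lower, at 588, 683, 620.2, 515 and 749.7 CPM in mMDSC against 217, 241, 78.4, 224 and 309 CPM in gMDSC (-1.56 ± 0.28, edgeR adjusted p = 0.00144). It was lowest in gMDSC 3 and highest in gMDSC 5. The anaphylatoxin receptor gene C3ar1 (-0.72) was lower too, whereas Cx3cr1, the fractalkine receptor gene of patrolling monocytes, was higher (187 ± 34.4 CPM in mMDSC against 301 ± 60.1 CPM in gMDSC, 0.69 ± 0.17, edgeR adjusted p = 0.0115). Csf1r, the M-CSF receptor gene of the monocyte and macrophage branch, did not separate the cell types: it was at 2650, 2241, 1997, 1597 and 2721 CPM in mMDSC against 1599, 2688, 1198, 2077 and 2980 CPM in gMDSC (-0.09 ± 0.24, edgeR adjusted p = 0.841), and the groups overlapped.

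Transcription factors followed the 2 branches in part. In the granulocytic list, 8 of 11 tested members were higher and 1 lower (median 1.63). Cebpd, a C/EBP factor induced in inflammation, was at 64.9, 68, 73.2, 69.2 and 54.5 CPM in mMDSC against 400.3, 337, 496, 388 and 251 CPM in gMDSC (2.50 ± 0.18, edgeR adjusted p = 1.02e-06). Junb, an AP-1 subunit, was at 2010, 2190, 2181, 2565 and 2410 CPM in mMDSC against 8081, 7838, 12610, 9913 and 6749 CPM in gMDSC (1.99 ± 0.18, edgeR adjusted p = 4.83e-06). In both, gMDSC 3 was highest and the groups were far apart. Cebpb, the C/EBP factor of emergency granulopoiesis, was higher (2.00 ± 0.31, edgeR adjusted p = 0.000483), as were Rara, a retinoic acid receptor gene (1.63 ± 0.20, edgeR adjusted p = 8.88e-05), and Klf5 (4.49 ± 0.51, edgeR adjusted p = 4.09e-05), while Irf5 was lower (-0.53 ± 0.15, edgeR adjusted p = 0.0248), a call that ended without mMDSC 2 or mMDSC 5. The early granulocyte factor genes did not pass or were barely detected: Cebpa (-0.17 ± 0.26, edgeR adjusted p = 0.704), Cebpe (1.68 ± 0.59, edgeR adjusted p = 0.0624) and Gfi1, which was too low to test (0.378 ± 0.343 CPM in mMDSC against 0.484 ± 0.753 CPM in gMDSC). In the monocytic list, 7 of 11 tested members were lower and 3 higher (median -0.81). Nr1h3, the liver X receptor alpha gene, was at 214, 149.6, 123, 148 and 137 CPM in mMDSC against 33.4, 30.6, 28, 27.1 and 27.9 CPM in gMDSC (-2.39 ± 0.17, edgeR adjusted p = 9.03e-07). Irf8, which directs progenitors towards monocytes, was lower by a smaller amount, at 462, 454, 411, 439 and 437 CPM in mMDSC against 260.3, 292, 298, 287 and 332 CPM in gMDSC (-0.58 ± 0.12, edgeR adjusted p = 0.00269), still with no overlap. Klf4 (-1.44), Zeb2 (-0.81), Pparg (-0.89) and Spic (-2.28) were lower, and Klf2 (2.08 ± 0.29, edgeR adjusted p = 0.000233), Egr2 (1.35) and Nr4a1 (0.69) were higher.

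Monocyte identity genes ran the other way. Of 21 tested members, 18 were lower and 2 higher (median -2.03), and 16 of the lower members had groups that did not overlap. F13a1, the coagulation factor XIII A chain gene of classical monocytes, was at 220.0, 288, 274, 167 and 357 CPM in mMDSC against 1.52, 3.4, 0.742, 4.28 and 4.37 CPM in gMDSC (-6.47 ± 0.44, edgeR adjusted p = 5.45e-07). S100a4, a calcium-binding protein gene tied to motility, was at 48.3, 87.1, 107, 189 and 69.3 CPM in mMDSC against 3.15, 0.17, 0.278, 1.2 and 0.524 CPM in gMDSC (-6.61 ± 0.67, edgeR adjusted p = 1.54e-05), and fibronectin, Fn1, at 366, 416, 589, 411 and 949.9 CPM in mMDSC against 20.3, 40.9, 13.1, 46.6 and 16.8 CPM in gMDSC (-4.31 ± 0.42, edgeR adjusted p = 1.1e-05). For each of these genes, every gMDSC library lay below every mMDSC library. The scaffold gene Ahnak (-4.78 ± 0.31, edgeR adjusted p = 4.53e-07), the proteoglycan gene Vcan (-5.90), Crip1 (-3.40) and the MS4A family genes Ms4a6d (-2.03 ± 0.15, edgeR adjusted p = 1.22e-06) and Ms4a4c (-2.08) were also lower. Lyz2, the lysozyme gene of both branches, differed by less: 5678 ± 786 CPM in mMDSC against 2943 ± 340.2 CPM in gMDSC (-0.95 ± 0.14, edgeR adjusted p = 0.000309). Emilin2 (0.90) and Treml4 (1.01) were higher. The calls of Plac8 and Lgals1, among the 18 lower, each ended without any of 6 single libraries, and that of Ctsc without gMDSC 4 or mMDSC 2. The list summed to 23130 to 29140 CPM in mMDSC and 11630 to 14410 CPM in gMDSC.

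Granule genes gave a mixed picture. Primary granule genes, made at the promyelocyte stage, were close to absent in both: Mpo was at 1.8 ± 2.19 CPM in mMDSC against 0.455 ± 0.422 CPM in gMDSC and Elane, with 3 counts in all gMDSC libraries together, at 1.92 ± 3.18 CPM in mMDSC against 0.051 ± 0.114 CPM in gMDSC. Prtn3, proteinase 3, was lower in gMDSC (5.7 ± 3.14 CPM in mMDSC against 0.15 ± 0.286 CPM in gMDSC, -4.92 ± 0.98, edgeR adjusted p = 0.00284). Of 15 tested later granule genes, 8 were higher and 2 lower (median 1.37). Mmp9, the gelatinase of tertiary granules, was at 0.938, 2.16, 3.44, 2.98 and 3.29 CPM in mMDSC against 802, 793, 617, 851 and 636 CPM in gMDSC (8.18 ± 0.34, edgeR adjusted p = 1.6e-08). Lcn2, lipocalin 2, was at 3.89, 8.63, 9.68, 7.66 and 3.69 CPM in mMDSC against 425, 311, 719.7, 341 and 190.3 CPM in gMDSC (5.89 ± 0.43, edgeR adjusted p = 9.88e-07). Olfm4 (7.42) and the peptidoglycan recognition gene Pglyrp1 (4.89) were higher as well. The secondary granule gene Ltf, lactoferrin, was at 9.9, 18, 10.1, 0 and 0.0373 CPM in mMDSC against 82.1, 55.1, 40.4, 63.5 and 42.1 CPM in gMDSC. Its groups did not overlap but the test was not passed (2.89 ± 1.00, edgeR adjusted p = 0.0578), with mMDSC 4 and 5 near 0 and mMDSC 1, 2 and 3 near 10 CPM or above. Camp, cathelicidin (1.04 ± 1.15, edgeR adjusted p = 0.586), and Ngp (1.51 ± 1.10, edgeR adjusted p = 0.386) had the same split among the mMDSC libraries and did not pass. Chil3, the chitinase-like protein Ym1 of monocytes and immature neutrophils, was lower (32.3, 135, 87, 92.1 and 83.9 CPM in mMDSC against 4.48, 0.934, 0.0927, 5.39 and 0.743 CPM in gMDSC, -5.24 ± 0.73, edgeR adjusted p = 0.000205).

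The genes with the largest differences, among those with at least 10 CPM in 1 group and no overlap, included several with few counts in the lower group. The largest rise in gMDSC was Il1f9, which encodes IL-36 gamma, at 0.422, 0.335, 0.26, 0.372 and 0.187 CPM in mMDSC against 555, 309, 461, 451 and 239.9 CPM in gMDSC (10.30 ± 0.35, edgeR adjusted p = 3.2e-09). This adjusted p was among the smallest of the comparison. After Il1f9 and Cxcr2 came the RUN and FYVE domain gene Rufy4 (10.16), the unnamed gene with the identifier 404236 (9.97), Amer2 (9.95), the stefin gene Stfa2l1 (9.91), the synaptonemal complex gene Sycp2 (9.86), the Mas-related receptor gene Mrgpra2b (9.80), the NOD-like receptor gene Nlrp12 (9.60) and the retroviral-like protease gene Asprv1 (9.53). Sycp2 belongs to meiosis and not to a known granulocyte programme, yet its gMDSC libraries were at 150.4, 86.6, 327, 115 and 57.6 CPM, against 0, 0.0372, 0.519, 0.213 and 0.112 CPM in mMDSC 1 to 5. The stefin and Mas-related receptor genes have near-identical copies, so their counts are uncertain. At the other end were the phospholipase C gene Plcb1 (18.2 ± 5.75 CPM in mMDSC against 0.142 ± 0.161 CPM in gMDSC, -7.08 ± 0.70, edgeR adjusted p = 1.22e-05), S100a4, F13a1, the interferon genes Ifna5 and Ifna4, Vcan, Gm15056 (-5.86), Ms4a8a (-5.75), the dermokine gene Dmkn (-5.51) and Chil3.

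Per unit of gene length, the most abundant RNAs of the groups overlapped. On the authors' RPKM scale, for which 80% of gene lengths were multiples of 3 and so look like coding lengths, Fth1, ferritin heavy chain, averaged 17400 ± 4320 RPKM in gMDSC and 11700 ± 2210 RPKM in mMDSC. Cd74, the class II invariant chain, led in mMDSC (18000 ± 3720 RPKM) and ranked 6 in gMDSC (9600 ± 1230 RPKM). Il1b ranked 2 in gMDSC (14900 ± 3280 RPKM) and 18 in mMDSC (3010 ± 761 RPKM). S100a9 ranked 5 in gMDSC (10200 ± 6600 RPKM) and 2691 in mMDSC (31.9 ± 15.1 RPKM). Apoe, Tmsb4x and B2m were among the 10 highest in both. Lyz2, H2-Ab1, Ctss, Ctsb and Ly6e were so in mMDSC only, and Il1b, S100a9, Cd14, Cxcl2 and S100a8 in gMDSC only.

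RNA of genes known as macrophage markers was measured in both populations, and F4/80+ cells had been gated out. Of 20 tested macrophage genes, 8 were higher and 5 lower in gMDSC. The median difference was 0.09, and -0.30 with library totals as scaling. Apoe, a lipid carrier gene of macrophages, was at 12280, 20630, 18560, 20990 and 16410 CPM in mMDSC against 19660, 26370, 54150, 28250 and 32930 CPM in gMDSC (0.86 ± 0.25, edgeR adjusted p = 0.0266). The groups overlapped, and the call ended without mMDSC 1, 3 or 5. C1qa, a complement C1q chain gene, was at 2092, 2343, 1946, 2355 and 1727 CPM in mMDSC against 2877, 3064, 5458, 2896 and 3419 CPM in gMDSC (0.76 ± 0.19, edgeR adjusted p = 0.0122), and C1qb (0.82) and C1qc (0.83) were likewise higher. The lipid receptor gene Trem2 (1.33 ± 0.21, edgeR adjusted p = 0.00059), Cd63 (1.65 ± 0.22, edgeR adjusted p = 0.000124) and the cathepsin gene Ctsd (1682, 1623, 1718, 1093 and 1755 CPM in mMDSC against 4609, 5206, 5345, 5073 and 4754 CPM in gMDSC, 1.67 ± 0.15, edgeR adjusted p = 5.26e-06) were higher, and Gpnmb (-2.09 ± 0.37, edgeR adjusted p = 0.00133), Timd4 (-2.94), Cd163 (-3.86) and Folr2 (-1.54) were lower. Marco and Vsig4, markers of resident macrophages, were near 0 in both groups. Summed over the 22 members, the list held 25510 to 35400 CPM in mMDSC and 38950 to 84100 CPM in gMDSC, the highest value being gMDSC 3. Whether these transcripts came from the sorted cells or from macrophages, and their part in other results, was not tested.

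Markers of other cell types were mostly low, with single genes standing out. Of 10 tested conventional dendritic cell genes, 0 were higher and 3 lower: Ccr7 (-2.64 ± 0.80, edgeR adjusted p = 0.0324), Dpp4 (-2.05 ± 0.56, edgeR adjusted p = 0.0201) and Clec10a (-3.36 ± 0.98, edgeR adjusted p = 0.0266). The calls of Ccr7 and Clec10a each ended without several single libraries. Zbtb46 and Clec9a, which define that lineage, were under 2 CPM on average in both groups. Of the plasmacytoid genes only Tcf4 passed, lower (-0.63 ± 0.16, edgeR adjusted p = 0.0142), and Siglech was at 1.29 ± 0.651 CPM in mMDSC against 2.1 ± 2.02 CPM in gMDSC. Cd3d, a T cell receptor chain gene, was at 0, 0, 0.13, 0.16 and 0.261 CPM in mMDSC against 19.7, 10.6, 42.3, 16.3 and 12.2 CPM in gMDSC (7.43 ± 0.77, edgeR adjusted p = 1.88e-05), with gMDSC 3 highest, whereas its partners Cd3e (0.113 ± 0.252 CPM in mMDSC against 0.0831 ± 0.119 CPM in gMDSC) and Cd3g (0.288 ± 0.396 CPM in mMDSC against 0.205 ± 0.105 CPM in gMDSC) stayed near 0 in both groups. Siglecf, a sialic acid receptor gene of eosinophils also known from tumour neutrophils, was at 0.985, 1.12, 1.3, 0.0532 and 3.62 CPM in mMDSC against 53.1, 76.8, 84.2, 71.8 and 52.5 CPM in gMDSC (5.54 ± 0.61, edgeR adjusted p = 3.18e-05), and Ccr3 was higher (2.90 ± 0.74, edgeR adjusted p = 0.0128). The eosinophil granule genes Epx (0.0672 ± 0.15 CPM in mMDSC against 0.0185 ± 0.0415 CPM in gMDSC) and Prg2, which had no counts in gMDSC, did not move with them. Krt18, an epithelial keratin gene, went from 0.886 ± 0.299 to 33.3 ± 11.1 CPM (5.24 ± 0.37, edgeR adjusted p = 8.2e-07). The list's other tested members did not pass: Krt8 (1.6 ± 0.385 CPM in mMDSC against 4.61 ± 3.12 CPM in gMDSC, 1.52 ± 0.55, edgeR adjusted p = 0.0687), Krt14 (1.51 ± 0.66, edgeR adjusted p = 0.133), Epcam (0.27 ± 0.82, edgeR adjusted p = 0.855) and Cdh1 (-0.57 ± 0.52, edgeR adjusted p = 0.49). The 7 epithelial genes summed to 6.91 to 14.3 CPM in mMDSC and 24.2 to 58.1 CPM in gMDSC, and up to 3 of 5 were called higher on leaving out a library. The part of epithelial RNA in other results was not tested. Among stromal and endothelial genes Acta2 was higher (2.31 ± 0.30, edgeR adjusted p = 0.000129) and Kdr lower (140.5 ± 51.1 CPM in mMDSC against 36.3 ± 23.0 CPM in gMDSC, -1.95 ± 0.54, edgeR adjusted p = 0.0199). The Kdr call ended without gMDSC 4. The collagen gene Col1a2 was measured in both groups (28.2 ± 13.4 CPM in mMDSC against 47.1 ± 30.4 CPM in gMDSC) and did not pass. The list summed to 200.8 to 507.7 CPM in mMDSC and 217.9 to 544.8 CPM in gMDSC. Haemoglobin genes were under 2 CPM on average in both groups.

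Cytokine genes were mostly higher in gMDSC: 11 of 17 tested were higher and 2 lower (median 1.49). Il1b, the gene for IL-1 beta, was at 2870, 3527, 3833, 6698 and 3086 CPM in mMDSC against 32720, 19750, 37760, 31190 and 15430 CPM in gMDSC (2.77 ± 0.30, edgeR adjusted p = 2.75e-05), with mMDSC 4 well above the other mMDSC libraries. Csf1, which encodes M-CSF, the ligand of Csf1r, was at 5.07, 3.5, 6.49, 7.82 and 7.91 CPM in mMDSC against 779.8, 839, 372, 744 and 550.2 CPM in gMDSC (6.74 ± 0.33, edgeR adjusted p = 4.19e-08). Unlike for the calprotectin genes, gMDSC 3 was the lowest gMDSC library here. Il1a was higher (3.61 ± 0.36, edgeR adjusted p = 1.33e-05), as were Il23a, a subunit of IL-23 (9.05 ± 2.86 CPM in mMDSC against 156 ± 83.7 CPM in gMDSC, 4.10 ± 0.45, edgeR adjusted p = 2.78e-05), the IL-1 receptor antagonist gene Il1rn (1.49) and oncostatin M, Osm (1.56). The 2 lower genes were Il6, at 39.6, 51.5, 89.9, 118 and 61.5 CPM in mMDSC against 2.57, 2.72, 7.51, 5.65 and 0.961 CPM in gMDSC (-4.24 ± 0.51, edgeR adjusted p = 6.57e-05), and Il12b, a subunit of IL-12 (51.1 ± 13.5 CPM in mMDSC against 25.5 ± 8.72 CPM in gMDSC, edgeR adjusted p = 0.0147). Il18, of the IL-1 family, did not pass (73 ± 22.2 CPM in mMDSC against 67.5 ± 35.3 CPM in gMDSC, -0.11 ± 0.32, edgeR adjusted p = 0.844).

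Chemokine genes were split. Of 16 tested, 3 were higher and 6 lower (median -0.26). The neutrophil attractant genes Cxcl2 (291, 456, 601, 1083 and 487 CPM in mMDSC against 4673, 2582, 9021, 4379 and 2319 CPM in gMDSC, 2.98 ± 0.43, edgeR adjusted p = 0.000252) and Cxcl3 (3.52 ± 1.63 CPM in mMDSC against 69.9 ± 32 CPM in gMDSC, 4.32 ± 0.40, edgeR adjusted p = 7.12e-06) were higher, with Ccl3 (1.35), whereas Cxcl1, of the same family, did not pass (-0.31 ± 0.27, edgeR adjusted p = 0.483). Ccl24, an eosinophil attractant gene (-4.35 ± 0.56, edgeR adjusted p = 0.000108), and Ccl9 (147 ± 50.1 CPM in mMDSC against 35 ± 4.74 CPM in gMDSC, -2.06 ± 0.25, edgeR adjusted p = 6.37e-05) were lower, as were the T cell attractant genes Cxcl9 (-2.05) and Ccl5 (-2.04), the CCR2 ligand gene Ccl2 (-1.23) and Cxcl16 (-0.55).

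Genes of type I interferons were lower in gMDSC and many of their target genes were higher. All 6 interferon genes with enough counts for the test were lower (median -6.35), of 15 listed. The interferon alpha genes among them were near 0 in gMDSC and reached the test through their mMDSC counts. Their shared direction and the median therefore follow in part from the count filter. Ifnb1 had counts in every library of both groups. Ifnb1, interferon beta, at chr4:88522025-88522794, was at 58.9, 79.9, 79.2, 161 and 48.3 CPM in mMDSC against 9.92, 10.9, 10.5, 15.8 and 6.21 CPM in gMDSC (-3.01 ± 0.35, edgeR adjusted p = 4.81e-05). Ifna4, whose upstream bases are printed above, was at 52.8, 85.8, 70.4, 134 and 43.8 CPM in mMDSC against 1.62, 1.19, 0.0927, 1.88 and 0.393 CPM in gMDSC (-6.26 ± 0.57, edgeR adjusted p = 6.17e-06). In both, mMDSC 4 was the highest library and every gMDSC library lay below every mMDSC library. Ifna5 was at 5.91, 9.52, 7.21, 24.4 and 4.25 CPM in mMDSC 1 to 5 and at 0 in all gMDSC libraries but gMDSC 4, at 0.599 CPM. With 2 counts in gMDSC, Ifna1 was 254-fold lower (95% counting interval 70.3 to 2100) and Ifna11 133-fold lower (36.9 to 1100); these intervals cover counting error only. Interferon alpha genes are near-identical copies, so single members are uncertain. Of 30 interferon-stimulated genes, 18 were higher and 3 lower (median 0.77). With library totals as scaling, 13 were higher and 5 lower. The antiviral gene Ifit1 was at 394, 494, 572, 557 and 494 CPM in mMDSC against 3463, 1734, 1860, 2473 and 1576 CPM in gMDSC (2.15 ± 0.22, edgeR adjusted p = 1.76e-05), Ifit3b at 71.4 ± 8.98 CPM in mMDSC against 432 ± 128 CPM in gMDSC (2.60 ± 0.21, edgeR adjusted p = 1.81e-06) and Oas2 at 148 ± 26.9 CPM in mMDSC against 490.0 ± 125 CPM in gMDSC (1.73 ± 0.21, edgeR adjusted p = 6.62e-05). The members lower in gMDSC were Mx1, at 98.3, 115, 166, 149 and 153 CPM in mMDSC against 39.7, 23.6, 42.4, 27.6 and 31.5 CPM in gMDSC (-2.05 ± 0.21, edgeR adjusted p = 1.72e-05), Ifi44 (-1.46 ± 0.18, edgeR adjusted p = 8.01e-05) and Dhx58 (-0.73 ± 0.14, edgeR adjusted p = 0.00199). Irf7, the factor that drives interferon alpha genes, did not pass (3069 ± 191 CPM in mMDSC against 3226 ± 637 CPM in gMDSC, 0.07 ± 0.15, edgeR adjusted p = 0.787).

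**Figure D3:**
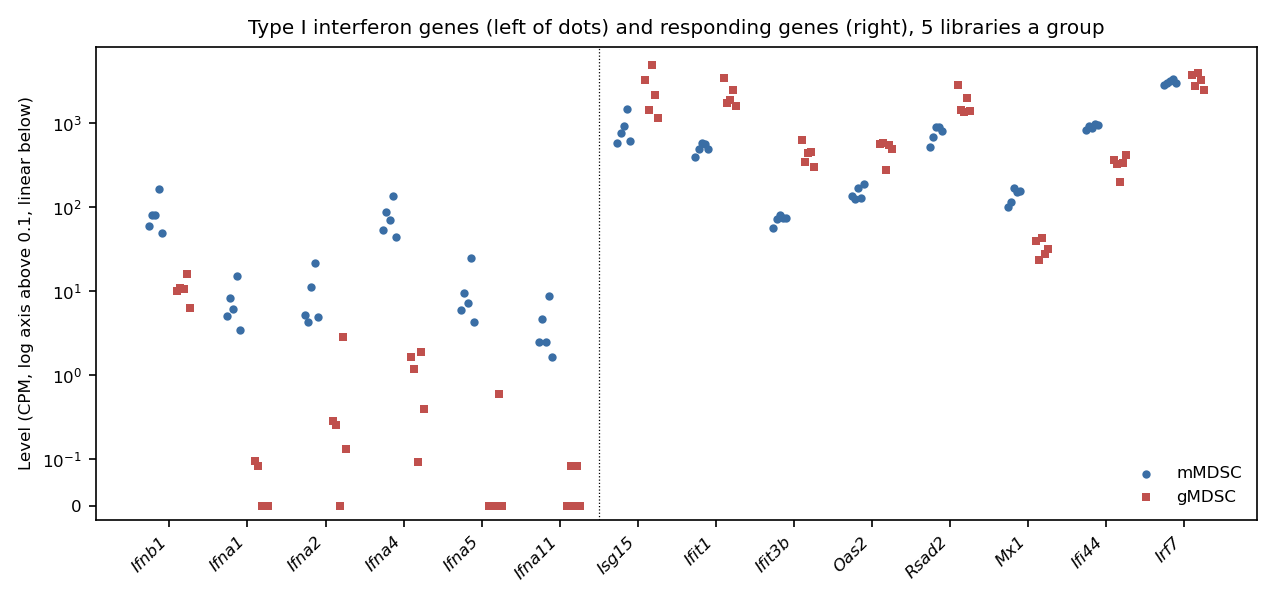
Level of type I interferon genes (left of the dotted line) and of genes that respond to interferon or drive it (right) in each vehicle library (CPM, log axis above 0.1 and linear below), blue circles for mMDSC and red squares for gMDSC. Every gMDSC library is below every mMDSC library for the interferon genes and for Mx1 and Ifi44, above for Ifit1, Ifit3b, Oas2 and Rsad2, and overlapping for Isg15 and Irf7.

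Sensing receptors moved in both directions, with a higher summed level in gMDSC that came in large part from Cd14. Among 27 pattern recognition receptors, 12 were higher and 8 lower (median 0.63). With library totals as scaling, 10 were higher and 10 lower (median 0.27). The list summed to 7675 to 11680 CPM in mMDSC and 18190 to 31470 CPM in gMDSC. In gMDSC 1, Cd14 alone held 17080 of 29130 CPM. Cd14, the lipopolysaccharide co-receptor gene, was at 2500, 2922, 3730, 5745 and 2988 CPM in mMDSC against 17080, 13300, 21180, 18940 and 10090 CPM in gMDSC (2.17 ± 0.26, edgeR adjusted p = 6.34e-05). The inflammasome gene Nlrp3 was at 156, 138, 169, 192 and 182 CPM in mMDSC against 981, 996, 755, 1017 and 615 CPM in gMDSC (2.38 ± 0.17, edgeR adjusted p = 9.61e-07). The C-type lectin genes Clec5a (2.25 ± 0.18, edgeR adjusted p = 2.07e-06), Clec4d (4.03), Clec4e (2.51) and Clec4n (2.30) were higher, and Clec4a1 (-1.39), Clec4a3 (-1.03), Clec12a (-0.50) and the scavenger receptor gene Msr1 (-1.33 ± 0.12, edgeR adjusted p = 3.98e-06) were lower. Of the Toll-like receptor genes, Tlr2 (1.03), Tlr4 (1.62), Tlr6 (1.74) and Tlr13 (0.87) were higher, and Tlr1 (-0.73), Tlr7 (-0.73), Tlr9 (-1.34) and Tlr11 (-4.39) lower. Calls for Tlr7, Tlr11, Tlr13 and Clec12a each ended without several single libraries. Paired activating and inhibitory receptors leaned to gMDSC, with 12 of 19 higher and 2 lower (median 0.79), the lower count being near the share over all genes. Cd33, a Siglec gene, was at 38.6, 48.3, 44.3, 55.3 and 39.9 CPM in mMDSC against 548, 466, 396, 585 and 399 CPM in gMDSC (3.40 ± 0.17, edgeR adjusted p = 5.48e-08). Trem1, an amplifier of neutrophil activation, was at 18.1, 28.4, 28.5, 40.3 and 40.6 CPM in mMDSC against 981, 649, 882, 1154 and 576 CPM in gMDSC (4.76 ± 0.28, edgeR adjusted p = 2.14e-07). The lower members were the high-affinity IgG receptor gene Fcgr1 (-0.96 ± 0.15, edgeR adjusted p = 0.000428) and the inhibitory Fcgr2b (-0.85), whereas Fcgr3 was higher (0.79).

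Antigen presentation leaned to mMDSC: 8 of 13 tested genes were lower and 1 higher in gMDSC (median -0.74). The class II transactivator gene Ciita was at 182, 147, 111, 157 and 139.9 CPM in mMDSC against 69.8, 67.2, 30.4, 48.4 and 94.6 CPM in gMDSC (-1.24 ± 0.26, edgeR adjusted p = 0.00406). H2-Ab1, a class II beta chain gene, was at 6714, 6208, 5417, 8491 and 4656 CPM in mMDSC against 3213, 2755, 4501, 2846 and 3451 CPM in gMDSC (-0.91 ± 0.19, edgeR adjusted p = 0.00375), with mMDSC 4 highest. H2-DMa and H2-DMb2, which load peptides on class II, were lower (-0.88 and -0.78). Cd74 itself did not pass (22810 ± 7098 CPM in mMDSC against 16330 ± 1652 CPM in gMDSC, -0.48 ± 0.19, edgeR adjusted p = 0.0981). The costimulatory genes parted: Cd40 was lower (283, 266, 267, 341 and 238 CPM in mMDSC against 94.5, 61, 73.2, 56.8 and 59.6 CPM in gMDSC, -2.02 ± 0.17, edgeR adjusted p = 3.88e-06) and Cd86 lower (-0.63 ± 0.14, edgeR adjusted p = 0.00594), while Cd80 was higher, at 21.8, 18.7, 27.5, 30.8 and 22.2 CPM in mMDSC against 175, 137, 50.4, 134 and 81.1 CPM in gMDSC (2.26 ± 0.30, edgeR adjusted p = 0.000151). For Cd80, gMDSC 3 was the closest to the mMDSC libraries.

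Genes tied to suppression of T cells did not all favour one cell type. Of 17 tested effector genes, 8 were higher and 3 lower in gMDSC (median 0.67, and 0.31 with library totals as scaling, where 6 were higher and 5 lower). The 2 arginase genes moved apart: Arg1 was low in both and lower in gMDSC, at 14, 32.7, 28.3, 2.87 and 21.2 CPM in mMDSC against 3.62, 0.594, 4.82, 1.88 and 1 CPM in gMDSC (-3.07 ± 0.67, edgeR adjusted p = 0.00539), its groups overlapping through mMDSC 4, and Arg2 was higher, at 226, 213, 257, 356 and 170.1 CPM in mMDSC against 1327, 826, 1492, 1221 and 650.2 CPM in gMDSC (2.17 ± 0.26, edgeR adjusted p = 5.73e-05). Nos2, inducible nitric oxide synthase, was at 28, 3.91, 7.6, 3.62 and 9.67 CPM in mMDSC against 1.43, 5.26, 3.89, 7.62 and 5.33 CPM in gMDSC and did not pass (-1.16 ± 0.59, edgeR adjusted p = 0.197). Ptgs2, cyclooxygenase 2, was at 437, 292, 298, 322 and 437 CPM in mMDSC against 1771, 1522, 649, 1944 and 1381 CPM in gMDSC (2.02 ± 0.26, edgeR adjusted p = 0.000116). Cd274, which encodes PD-L1, was at 130.5, 79.9, 60.1, 83.1 and 78.4 CPM in mMDSC against 599.8, 264, 189.9, 296 and 213 CPM in gMDSC (1.85 ± 0.32, edgeR adjusted p = 0.000924), with gMDSC 1 at the top. The ectonucleotidase genes that make adenosine were higher: Nt5e (CD73) was at 4.17, 3.09, 3.51, 3.51 and 4.22 CPM in mMDSC against 102, 161, 72.8, 185 and 115 CPM in gMDSC (5.10 ± 0.28, edgeR adjusted p = 1.05e-07) and Entpd1 (CD39) averaged 145 ± 21.1 CPM in mMDSC against 645 ± 142 CPM in gMDSC (2.15 ± 0.18, edgeR adjusted p = 2.43e-06). Il10 (-1.22 ± 0.27, edgeR adjusted p = 0.00623) and Tgfb1 (-0.42 ± 0.13, edgeR adjusted p = 0.0327) were lower, and the Tgfb1 call ended without any of 7 single libraries. Stat3 (0.64) and the SLAM receptor gene Cd84 (1.09) were higher. Among 7 NADPH oxidase genes, 4 were higher and 1 lower. The cytosolic subunit genes Ncf1 (0.84) and Ncf4 (0.90) and the GTPase gene Rac2 (1.31) were higher, the membrane subunit gene Cybb lower (1604, 1632, 1387, 1381 and 1631 CPM in mMDSC against 836, 880.0, 279, 722 and 1117 CPM in gMDSC, -0.99 ± 0.28, edgeR adjusted p = 0.021), and its partner Cyba did not pass (-0.18, adjusted p = 0.695). Of 11 tested eicosanoid genes 4 were higher and 0 lower (median 0.20, and -0.20 with library totals as scaling). Alox5, arachidonate 5-lipoxygenase, was at 4.55, 5.95, 0.779, 1.91 and 4.89 CPM in mMDSC against 175, 196, 183, 279.7 and 141 CPM in gMDSC (5.72 ± 0.47, edgeR adjusted p = 2.27e-06), while its activating protein gene Alox5ap did not pass (0.20, adjusted p = 0.662).

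**Figure D4:**
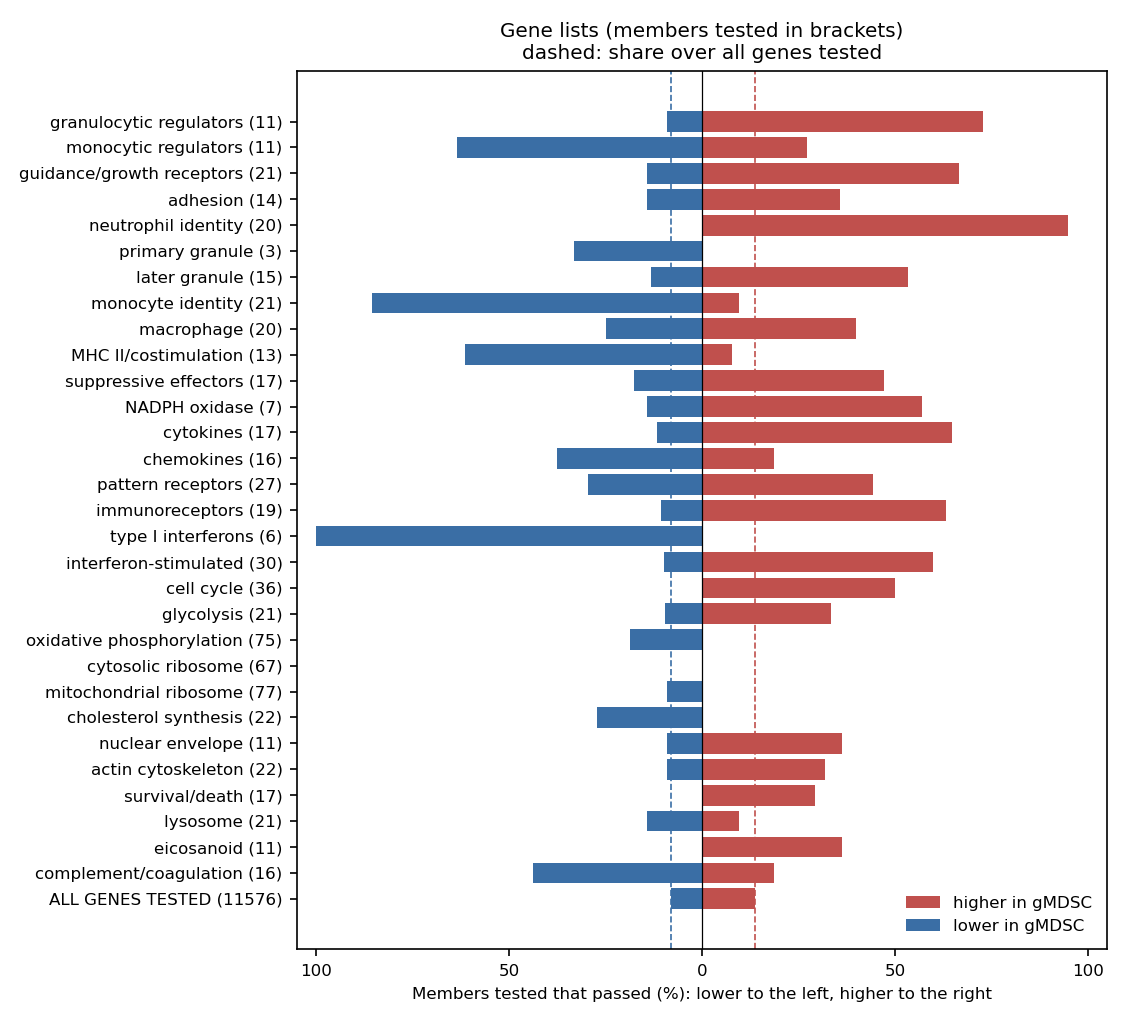
Share of tested members of each list called higher (red, to the right) or lower (blue, to the left) in gMDSC, in percent, with the number tested in brackets. Dashed lines mark the shares over all genes tested (13.6% higher, 8.08% lower). Neutrophil identity genes (19 of 20 higher) and monocyte identity genes (18 of 21 lower) lie at opposite ends.

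Adhesion genes of leukocyte rolling and arrest were mixed, with 5 of 14 higher and 2 lower (median 0.10, and -0.29 with library totals as scaling, where 5 were higher and 4 lower). Cd44, a hyaluronan receptor gene, was at 195, 207, 224, 219 and 268 CPM in mMDSC against 1234, 829, 883, 1130 and 707 CPM in gMDSC (2.10 ± 0.18, edgeR adjusted p = 2.79e-06). The P-selectin ligand gene Selplg (1.47 ± 0.16, edgeR adjusted p = 2.14e-05), Icam1 (1.34) and Itgal (1.02) were higher. Itgb7 was lower, at 177, 156, 188, 153 and 207 CPM in mMDSC against 36.6, 22.9, 22.6, 17.6 and 41.6 CPM in gMDSC (-2.64 ± 0.24, edgeR adjusted p = 5.96e-06). Cd177, an antigen commonly used for neutrophils, was lower in gMDSC, at 111, 209, 168, 130.3 and 194 CPM in mMDSC against 40.7, 29.4, 26.8, 44.8 and 19.5 CPM in gMDSC (-2.33 ± 0.26, edgeR adjusted p = 3.08e-05), against the direction of the neutrophil identity list. In the actin cytoskeleton list 7 of 22 were higher and 2 lower, the lower count being near the share over all genes. The median of 0.35 turned to -0.03 with library totals as scaling, where 4 were higher and 4 lower. The bundling protein gene Lcp1 (929 ± 192 CPM in mMDSC against 2674 ± 572 CPM in gMDSC, 1.52 ± 0.19, edgeR adjusted p = 8.53e-05), the leukocyte actin-binding gene Lsp1 (1.77) and Vasp (1.49 ± 0.17, edgeR adjusted p = 3.75e-05) were higher. The intermediate filament gene Vim was lower, at 637, 724, 1013, 1298 and 709 CPM in mMDSC against 259, 166, 366, 195 and 147 CPM in gMDSC (-1.95 ± 0.28, edgeR adjusted p = 0.00025). Of 11 nuclear envelope genes 4 were higher and 1 lower (2 and 3 with library totals as scaling), the lower count being near the share over all genes. The B-type lamin gene Lmnb1 was higher, at 64.8, 78.6, 68.6, 79.9 and 70.3 CPM in mMDSC against 888, 546, 1058, 890.4 and 524 CPM in gMDSC (3.43 ± 0.22, edgeR adjusted p = 3.57e-07). The lower gene was the A-type Lmna, at 118 ± 16.2 CPM in mMDSC against 77.3 ± 18.1 CPM in gMDSC (-0.61 ± 0.18, edgeR adjusted p = 0.0263). Its call ended without any of 5 single libraries. Lbr, the lamin B receptor gene that lobed neutrophil nuclei depend on, was higher (0.90 ± 0.25, edgeR adjusted p = 0.022), and its call ended without gMDSC 2, gMDSC 4 or mMDSC 3.

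Metabolic genes moved less. Of 21 glycolysis genes 7 were higher and 2 lower (median 0.13, and -0.21 with library totals as scaling, where 5 were higher and 6 lower). The higher members were transporters and regulators more than enzymes: the lactate exporter gene Slc16a3 was at 188, 115, 102, 111 and 129.6 CPM in mMDSC against 942, 826, 1263, 1063 and 610.1 CPM in gMDSC (2.86 ± 0.23, edgeR adjusted p = 2.05e-06) and the glucose transporter gene Slc2a1 at 182, 156, 145, 98.6 and 139 CPM in mMDSC against 520.4, 538, 673, 639 and 448 CPM in gMDSC (1.97 ± 0.18, edgeR adjusted p = 6.49e-06), with Slc2a3 (4.07), Pfkfb3 (1.27 ± 0.16, edgeR adjusted p = 8.85e-05) and Pfkfb4 (1.47). The enzyme genes Ldha (-0.21 ± 0.12, edgeR adjusted p = 0.262), Aldoa (0.25) and Eno1 (-0.11) did not pass. Gapdh was at 3.55 ± 0.816 CPM in mMDSC against 4.8 ± 2.21 CPM in gMDSC. That is far below its usual abundance, and like many ribosomal protein genes it has near-identical copies, so these values are uncertain.

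Respiratory chain calls all pointed one way: 14 of 75 tested were lower and 0 higher (median -0.45). Without gMDSC 3, 47 were lower and 0 higher, and with library totals as scaling 48 were lower. Atp5a1, the ATP synthase alpha subunit gene, was at 707, 737, 704, 757 and 709 CPM in mMDSC against 457, 521, 486, 519 and 547 CPM in gMDSC (-0.51 ± 0.11, edgeR adjusted p = 0.00466). Cyc1, cytochrome c1, was at 208, 201, 199, 249 and 178 CPM in mMDSC against 103, 113, 135, 88.6 and 124 CPM in gMDSC (-0.88 ± 0.15, edgeR adjusted p = 0.00102). The summed level of the list was 8118 to 13910 CPM in mMDSC, and in gMDSC 11240 CPM for gMDSC 3 against 6326 to 7517 CPM for the other four. Mitochondrial ribosome genes had 7 of 77 lower and 0 higher (median -0.36), a share near that of all genes. Without gMDSC 3, 30 were lower, with library totals as scaling 44, and by DESeq2 12 were lower and 1 higher. Cytosolic ribosome genes had 0 of 67 called by edgeR, 0 at an unadjusted p under 0.05 and 0 by DESeq2 or limma, with a median of -0.06. Without gMDSC 3, 6 were lower (median -0.46), and with library totals as scaling 5 were lower (median -0.46). Their summed level was 1540 to 3240 CPM in mMDSC, and 3846 CPM in gMDSC 3 against 1376 to 1766 CPM in the other gMDSC libraries. Many of these genes were at a few RPKM or less, such as Rpl19 (1.81 in mMDSC, 1.99 in gMDSC), though Rps3 was at 275 and 174 RPKM. The lack of calls therefore says little about ribosomal protein RNA. Some respiratory genes, such as Atp5l (0.984 RPKM in mMDSC, 0.966 in gMDSC), were also that low. Of 22 tested cholesterol synthesis and uptake genes 6 were lower and 0 higher (median -0.87). The lower count was 10 without gMDSC 3, 12 with library totals as scaling and 9 by DESeq2. The regulator gene Srebf2 was at 96.2 ± 10.9 CPM in mMDSC against 46.6 ± 16 CPM in gMDSC (-1.04 ± 0.25, edgeR adjusted p = 0.0103). Lysosomal genes had 2 of 21 higher and 3 lower (median -0.16), counts near the shares over all genes. With library totals as scaling 1 was higher and 12 lower, and without gMDSC 3, 3 were higher and 5 lower.

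Proliferation genes were low in level and higher in gMDSC: 18 of 36 tested cell cycle genes were higher and 0 lower (median 0.99). The count fell to 7 with library totals as scaling and rose to 22 without gMDSC 3. Mki67, a marker of cycling cells, was at 53.2, 33.6, 36.2, 57.3 and 31.1 CPM in mMDSC against 75.8, 72.2, 86.1, 87.5 and 81.4 CPM in gMDSC (0.93 ± 0.19, edgeR adjusted p = 0.00396). Top2a, topoisomerase II alpha, was at 41.4, 27.3, 21.4, 14.8 and 29.8 CPM in mMDSC against 69.1, 67.1, 54.4, 45.7 and 78.8 CPM in gMDSC (1.23 ± 0.26, edgeR adjusted p = 0.00445). Cdk1 (13 ± 3.19 CPM in mMDSC against 36.8 ± 8.92 CPM in gMDSC, edgeR adjusted p = 0.000583) and Cdc20 (1.72) were higher, while the replication genes Pcna (0.14 ± 0.27, edgeR adjusted p = 0.779) and Mcm4 (-0.01, adjusted p = 0.983) did not pass. Of 17 tested survival and death genes 5 were higher and 0 lower (5 and 2 with library totals as scaling). The 5 were Mcl1, at 535, 547, 578, 595 and 636 CPM in mMDSC against 1738, 1599, 2579, 1963 and 1361 CPM in gMDSC (1.68 ± 0.17, edgeR adjusted p = 1.56e-05), on which neutrophil survival depends, Bcl2l1 (1.59 ± 0.17, edgeR adjusted p = 2.38e-05), the pro-death Bcl2l11 (1.12 ± 0.15, edgeR adjusted p = 0.000145), Birc3 (1.40) and the kinase gene Pim1 (1.52 ± 0.16, edgeR adjusted p = 1.98e-05).

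Complement and coagulation genes were lower on balance, with 7 of 16 lower and 3 higher (median -0.71). Complement factor B, Cfb, was at 5170, 3602, 3409, 3135 and 3796 CPM in mMDSC against 1456, 1851, 1207, 1735 and 2092 CPM in gMDSC (-1.20 ± 0.18, edgeR adjusted p = 0.000434), and properdin, Cfp, was lower (-1.10 ± 0.18, edgeR adjusted p = 0.000593). Thrombospondin 1, Thbs1, was at 159, 130.1, 282, 173 and 331 CPM in mMDSC against 29.8, 50.5, 22.1, 35 and 55.9 CPM in gMDSC (-2.47 ± 0.32, edgeR adjusted p = 0.00011). Among the higher genes were tissue factor, F3, at 7.6, 9.75, 4.8, 7.87 and 5.93 CPM in mMDSC against 174, 66.5, 70.9, 104 and 35.5 CPM in gMDSC (3.64 ± 0.39, edgeR adjusted p = 2.59e-05) and the urokinase receptor gene Plaur (1.64).

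The same comparison was made in the drug-treated animals, to ask whether the cell type differences changed with treatment. There, 5 gMDSC and 5 mMDSC libraries from mice given GNE-781 were set against each other, and the difference between the 2 differences was tested over all 20 libraries. Of 12688 genes, 63 (0.497%) had a gMDSC minus mMDSC difference that was more positive under CBPi and 29 (0.229%) one that was more negative. DESeq2 called 184 and 93, and with the replicate number as a block 33 and 19 passed. The 2 comparisons share no library. Of the 174 genes named by rule, 9 passed this test, against 92 (0.725%) of all 12688 genes. Many of the 174 were named for a large vehicle difference or its small p. That difference is part of the test, and differences picked as extremes tend to shrink in a second comparison. The 9 are therefore not set against the share of all genes as a result. The difference under CBPi was 8.92 ± 0.42 for Cxcr2, 7.81 ± 0.55 for S100a9, -4.40 ± 0.19 for Ly6c2 and -2.95 ± 0.38 for Ifnb1, none of which passed. F13a1 was one that passed: its difference was -6.47 with vehicle and -3.25 ± 0.38 under CBPi (change 3.19 ± 0.55, edgeR adjusted p = 0.00767). For Thbs1 the sign turned, from -2.47 to 1.28 ± 0.46 (change 3.73 ± 0.61, edgeR adjusted p = 0.00384), and for Nos2, from -1.16, not passed, to 2.67 ± 0.38 (change 3.81 ± 0.73, edgeR adjusted p = 0.0175). Itgb7 (1.75 ± 0.28, edgeR adjusted p = 0.00339), Nr1h3 (1.32 ± 0.26, edgeR adjusted p = 0.0175), Pfkfb3 (2.37 ± 0.35, edgeR adjusted p = 0.00274) and Dmkn (3.32 ± 0.73, edgeR adjusted p = 0.0359) also became more positive. Mmp9 (-1.91 ± 0.35, edgeR adjusted p = 0.0142) and Clec4n (-2.21 ± 0.30, edgeR adjusted p = 0.00148) became more negative. For Clec4n the difference went from 2.30 with vehicle to 0.14 ± 0.18 under CBPi. The count of more positive genes fell to 23 without gMDSC CBPi 7, 36 without gMDSC vehicle 4 and 38 without gMDSC CBPi 6. That of more negative genes fell to between 10 and 19 on leaving out any of 13 single libraries.

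**Figure D5:**
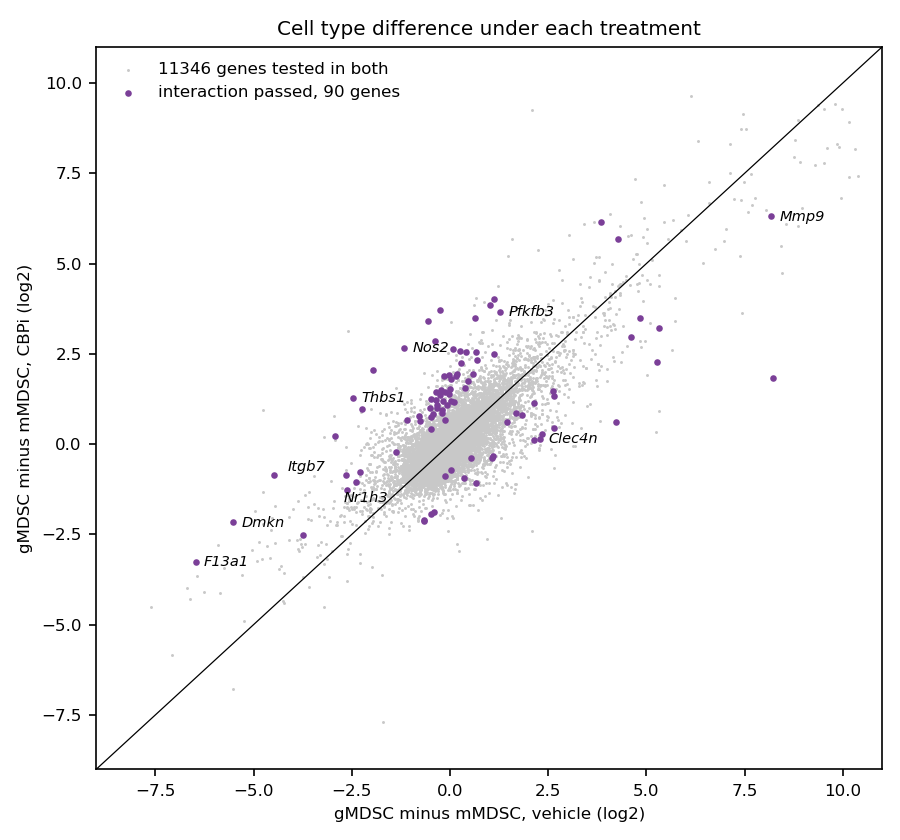
Difference between gMDSC and mMDSC under CBPi (log2, vertical axis) against that with vehicle (log2, horizontal axis). Each grey point is a gene tested under both treatments, purple points are those whose difference changed between treatments, and the line marks equal differences. F13a1, Dmkn, Thbs1, Nos2 and Pfkfb3 lie above the line, Mmp9 and Clec4n below it.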

How the data were processed

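RNA-seq libraries of sorted cells were analysed: 10 vehicle libraries in the main comparison and all 20 in the treatment comparison. The authors deposited counts per gene and RPKM values in each file. The RPKM were made by the authors from a larger total, of which the counts were 50.25 to 62.06% in the vehicle libraries. Reads were aligned with GSNAP to GRCm38, per the submitters' processing notes; the sources used here do not give strandedness or counting rules. Identifiers were matched to RefSeq symbols for 21647 of 23090 genes.

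Counts were tested with edgeR 4.0.16 (R 4.3.3): TMM scaling, filterByExpr (minimum count 10, minimum total 15), quasi-likelihood fit on the 10 libraries, Benjamini-Hochberg threshold 0.05. The change between treatments was the interaction in a fit of 20 libraries. Alternatives used DESeq2 1.42.0, limma 3.58.1, other scalings and filters, a replicate block and leaving out single libraries. On simulated data for the vehicle comparison (11389 genes), 3% of genes changed 1.5-fold, 25% changed 2-fold and 72.7% changed 4-fold were recovered, and 1 unchanged gene was called. The simulation changed far fewer genes than were called in the real data, with as many raised as lowered. Its rates therefore need not hold for the real comparison, and it did not probe the dependence on scaling.

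The 174 genes named by rule were the 10 largest differences each way, up to 4 with the smallest p in each of 38 lists, the gate genes and 12 fixed genes. The 5 smallest interaction p each way were picked from among these. The 10 highest by RPKM in each group were described apart and are not counted in the 174 unless also named by another rule. Other list members named were chosen after their values were seen. The comparison, its members and the lists were chosen with earlier results of these data known. Same-numbered libraries of the 2 cell types did not all deviate together, so the numbers were not used as pairs. Some list members are not reported here.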

Additional observations from a re-analysis of the deposited data

Results flagged for a closer look

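The 174 named genes in both cell types gave 348 groups of 5 libraries, and groups with very low values throughout were left out of the screen. In 31 groups, 1 library lay far from the other 4 by Dixon's ratio. For independent, normally distributed values, chance alone flags about 1 in 20 groups screened. These genes share their libraries, so that rate is only a rough guide. In gMDSC, gMDSC 3 was highest for S100a8 (9140 CPM, the others 1590 to 3550), S100a9 (19100), Cd63 (807), Bst2 (611), Pf4 (80.4), Cd3d (42.3), Klf5 (30.6), Rpl10 (23.2), Ltc4s (16.7), Rpl12 (8.25) and Prss57 (6.86), and lowest for Oas2 (274 CPM). Other gMDSC libraries stood out for Cd274 (gMDSC 1, 600 CPM), Nlrp12 (gMDSC 4, 239), Gm15056 (gMDSC 1, 6.2) and Gp9 (gMDSC 1, 4). In mMDSC, mMDSC 4 was highest for Il1b (6700 CPM, the others 2870 to 3830), Il1a (235), Cd63 (191), Ifnb1 (161), Ifna5 (24.4), Cd79b (18.1), Pglyrp1 (8.67) and Klk1 (3.88), and lowest for Ctsd (1090) and Sun2 (4.31). The others were mMDSC 1 for Nos2 (highest, 28 CPM), C5ar1 (lowest, 262) and Trem2 (lowest, 69.2), mMDSC 2 for Olfm4 (highest, 1.12) and mMDSC 3 for Mpo (highest, 5.65).

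For 9 named genes the gMDSC minus mMDSC difference changed between vehicle and CBPi by the edgeR interaction test: it was more positive under CBPi by 3.81 for Nos2 (log2), 3.73 for Thbs1, 3.32 for Dmkn, 3.19 for F13a1, 2.37 for Pfkfb3, 1.75 for Itgb7 and 1.32 for Nr1h3, and the change was -2.20 for Clec4n and -1.91 for Mmp9. Many named genes were picked by their vehicle difference, which is part of this test.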

How the results depend on the processing

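Counts of genes higher in gMDSC ranged from 1351 to 1749 on leaving out single libraries, and counts lower from 676 to 1521, the highest without gMDSC 3. With library totals as the only scaling, 1009 were higher and 2714 lower, and with all 20 libraries in 1 fit 1519 were lower. For the change of the difference under CBPi, DESeq2 called 184 genes more positive and 93 more negative, library totals gave 46 more negative, and leaving out single libraries gave 23 to 85 more positive and 10 to 32 more negative. Of 148 called genes among those named by rule, 10 lost the call under at least 1 alternative and none changed sign; other list members that lost it on leaving out a library are given with their results. Under the filter of 5 CPM no primary granule gene was left, so that list has no value there. The cause of these shifts was not tested. Interferon alpha, stefin and Ly6c genes have near-identical copies, and genes with few counts in the lower group have fold changes that depend on the prior count.

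With the replicate number as a block, 1318 genes were higher and 696 lower, and 33 were more positive and 19 more negative under CBPi. The numbers were not shown to pair the samples: correlations of deviations between same-numbered libraries were -0.0307, 0.031, 0.0495, -0.0312 and 0.215, and 1 of 5 mMDSC libraries correlated best with its own number.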
